A study of Homo sapiens with 24 samples.

Results

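The RNA of 10 tubulin genes was followed in wild-type HCT116 cells and in lines with TNRC6A, TNRC6B or both knocked out. Some of the cells were given a control duplex RNA or duplexes against TNRC6C. The genes were 6 beta tubulins (TUBB, TUBB2A, TUBB2B, TUBB3, TUBB4B and TUBB6) and 4 alpha tubulins (TUBA1A, TUBA1B, TUBA1C and TUBA4A). They were chosen by their RNA levels, summed reads and TPM in the 8 groups of libraries, so differences in their levels between those groups are given as a description, with no test. They are 10 of 57721 annotated genes and 10 of the 24153 that passed a filter on low counts, and all 10 passed it. Tests are given for other measures, namely the share that each transcript held within its gene and 127 other genes around tubulin. The lists of those genes were also drawn up with earlier results of these data known, so their counts are not independent evidence. The transcript shares are taken over each gene's summed reads, which the choice used, so they are not independent of it either.

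HCT116 is a human colon cancer cell line, and TNRC6A, TNRC6B and TNRC6C are the scaffold proteins that join Argonaute bound to a small RNA with the enzymes that shorten poly(A) tails. Of 24 libraries, 3 in each of 8 groups, 12 came from cells that were not transfected: wild type, TNRC6A-/-, TNRC6B-/- and TNRC6AB-/-. The other 12 came from cells given duplex RNA, either siGL2, a control duplex, or siTNRC6C, a pool against TNRC6C, in wild-type and in TNRC6AB-/- cells. TNRC6A was cut by a frameshift and TNRC6B by a large deletion, and each genotype was a purchased line, so a line and its genotype cannot be told apart. All cells were grown in McCoy's 5a medium with serum. Nothing in the labels says whether the 3 libraries of a group came from separate cultures, so p-values measure the spread between libraries, which may be technical. Each gene's spread was estimated over all 8 groups together, for SEs and p-values alike. Between libraries of the same group, the variance was 4.37 to 31.98 times that of read counting without transfection and 1.44 to 7.22 times with it. SEs and p-values can therefore be too small for untransfected groups and too large for transfected ones.

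Depth was 28144290 to 42689320 estimated reads a library, with a median of 34465674. The targeted genes followed their labels. Mean TNRC6A was 111 CPM (read counts scaled to the size of the library) in wild type, 68.6 in TNRC6A-/- and 51.0 in TNRC6AB-/- cells. Mean TNRC6B was 192 CPM in wild type, 120 in TNRC6B-/- and 93.1 in TNRC6AB-/- cells. TNRC6C was at 53.7 CPM in wild type siGL2 and 21.0 in wild type siTNRC6C, and at 120 in TNRC6AB-/- siGL2 against 19.7 in TNRC6AB-/- siTNRC6C. The epithelial markers KRT8, KRT18, KRT19 and EPCAM were present, with KRT8 at 258 to 656 TPM (a share of transcripts that allows for length), while VIL1 stayed at or below 0.247 TPM and CDX1 had a median of 0. Of the markers of other cells CD3E had a median of 0, and COL1A1 reached 25.4 TPM. In bulk RNA, fewer cells that make a gene and less of its RNA per cell cannot be told apart.

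Wild type replicate 2 and TNRC6B-/- replicate 1 lay farthest from the other libraries of their groups, at distances of 11.35 and 9.7 on the first 2 principal components, where transfected libraries lay at 0.69 to 3.88. Wild type replicate 2 held 377 CPM of TUBB where its partners held 812 and 929, and 293 CPM of TUBA1B against 793 and 853. The summed CPM of 16 genes of G2 and mitosis was 1574 in that library, the lowest of the 24. Because 33.3 to 49.6% of the TPM of a library lay in transcripts of at most 300 bases, and the CPM that went with 1 TPM of TUBB ran from 2.64 to 4.56, TPM was used within a library and CPM between groups.

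Tubulin is a dimer of an alpha and a beta chain, and dimers add end to end and side by side to form microtubules, the tracks and spindle fibers of the cell. The chains are folded by prefoldin, the CCT chaperonin and tubulin cofactors. Tubulin RNA is unusual in that free dimers shorten its life: TTC5 recognizes new tubulin chains as they leave the ribosome and, through SCAPER, brings in the CCR4-NOT deadenylase, whose scaffold is CNOT1. TUBB and TUBA1B are the usual forms of dividing cells, TUBB4B is widely made and prominent in cilia, TUBB3 and TUBB2B are best known in neurons, and TUBA1A is the main alpha chain of the developing brain.

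Positions are on GRCh38. TUBB was at chromosome 6, 30720201 to 30725426, on the plus strand, with TUBB2A at 3153669 to 3157526 and TUBB2B at 3224261 to 3231730 on its minus strand. TUBB3 was at chromosome 16, 89921392 to 89938761, TUBB4B at chromosome 9, 137241213 to 137243707, and TUBB6 at chromosome 18, 12307669 to 12344320, all on the plus strand. On chromosome 12, TUBA1B (49127782 to 49131397) and TUBA1A (49184796 to 49189324) were on the minus strand and TUBA1C (49188736 to 49274603) on the plus strand, with its start inside TUBA1A. TUBA4A was at chromosome 2, 219249711 to 219278170, on the minus strand.

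Close relatives among these genes limit how far reads can be parted. Of the stretches of 31 bases in the leading transcript of TUBB2A, 70.0% occurred in other genes, and 63.7% occurred in TUBB2B, some perhaps in further genes too. The figure was 72.2% for TUBA1B, 57.5% for TUBA1C, 54.3% for TUBB2B, 51.6% for TUBA1A and 31.6% for TUBB. TUBB4B (19.7%), TUBA4A (11.9%) and TUBB6 (6.1%) were the most distinct. TUBB3 shared 90.6%, nearly all with the readthrough gene AC092143.1, which had a mean of at most 0.119 TPM in any group. Levels of TUBB2A and TUBB2B, and of the TUBA1 genes, are estimates that rest on the unshared part.

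Since TNRC6 proteins act with small RNAs, the 3′ untranslated regions of the leading coding transcripts were searched for 7-base matches to seeds. The sequences are given for the families whose matches are described and for the guide strands of the duplexes, from RefSeq and from the study's list of duplexes, 5′ to 3′ with the seed, bases 2 to 8, in capitals.
hsa-miR-200c-3p: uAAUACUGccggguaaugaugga
hsa-miR-29a-3p: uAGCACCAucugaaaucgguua
hsa-let-7a-5p: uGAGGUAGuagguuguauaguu
hsa-miR-141-3p: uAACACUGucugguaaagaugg
hsa-miR-21-5p: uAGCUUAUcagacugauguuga
siGL2 guide strand: uCGAAGUAuuccgcguacg
siTNRC6C guide strand AS1: aAGUGGACguuugugguuc
siTNRC6C guide strand AS2: uACUGAUGucaaccuggaaguguagaa
siTNRC6C guide strand AS3: uGACAUUCauguuuggguucaguccag

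The matches to miR-200c fell in 3 of the 10 genes, beside 13.9% of 16923 genes with such a region. For miR-29a it was 2 of 10 beside 12.3%. They are shown with 10 bases on each side and the match in capitals, as are the matches to miR-29a, which both lay in the TUBB2 pair.
TUBB, miR-200c match: gaggtgtcagCAGTATTatctccactt
TUBB2A, miR-200c match: ctaaaaattaCAGTATTgtctgtgaag
TUBB3, miR-200c match: cgccctcctgCAGTATTtatggcctcg
TUBB2A, miR-29a match: ttgtaaactaTGGTGCTcagttttgcc
TUBB2B, miR-29a match: gctgggtctcTGGTGCTcttcactgtt

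The region of TUBB2A spans 194 bases and that of TUBB3 293, and among genes with regions of similar length 1.5% and 2.4% held the miR-200c letters. Among genes with regions like that of TUBB it was 10.4%. The miR-29a letters occurred in 2.2% of regions like that of TUBB2A and in 5.3% of regions like that of TUBB2B. TUBB, whose region is the longest at 1029 bases, also held letters of let-7, miR-141 and the siTNRC6C strands AS2 and AS3, and TUBA4A (641 bases) those of miR-21. Among regions of similar length these letters occurred in 5.8%, 12.1%, 6.2%, 5.4% and 2.7%, in the same order. A further 8 families, among them miR-17, miR-19 and miR-34, had no match in the 10 genes. TUBB4B, TUBB6, TUBA1B and TUBA1C held none of the letters, and the seeds of siGL2 and of siTNRC6C strand AS1 were in none of the 10. These are matches of letters only.

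Within a library TUBA1B was the most abundant of the 10 by mean TPM in every group and TUBB came next, while TUBB2B was the least. In wild type, TUBA1B made up 35.2% ± 6.16 (SD, n = 3) of the summed TPM of the 10, TUBB 22.7% ± 1.52, TUBA1C 19.4% ± 4.97 and TUBB4B 12.1% ± 2.05. TUBB3 and TUBB6 held 3.65% and 3.39%, TUBB2A, TUBA1A and TUBA4A 1.44%, 1.32% and 0.760%, and TUBB2B 0.0271%. The 37 annotated tubulin pseudogenes together stayed between 0.168% and 0.278% of the sum in group means.

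In TNRC6AB-/- cells the make-up was another: TUBB4B held 23.2% ± 0.61 without transfection, 21.0% ± 0.19 with siGL2 and 17.9% ± 0.28 with siTNRC6C. In the 5 groups that kept TNRC6A or TNRC6B, TUBB4B held between 11.5% and 12.6%. TUBA1B held less, 25.8% ± 0.67, 27.9% ± 0.25 and 25.9% ± 0.20 in the 3 double knockout groups, against 34.1% to 39.5% in the rest. TUBB kept between 21.6% and 24.1% in every group. Beta chains together made up 54.6% ± 0.43 of the sum in TNRC6AB-/-, 49.6% ± 0.33 with siGL2 and 52.2% ± 0.46 with siTNRC6C, and 41.6% to 44.9% in the other 5 groups. The 9 double knockout libraries did not overlap the other 15 in this share. By summed reads, which favor longer transcripts, the share of beta chains was higher throughout, at 51.7% to 62.6%, and the 3 double knockout groups again had the highest values.

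**Figure D1:**
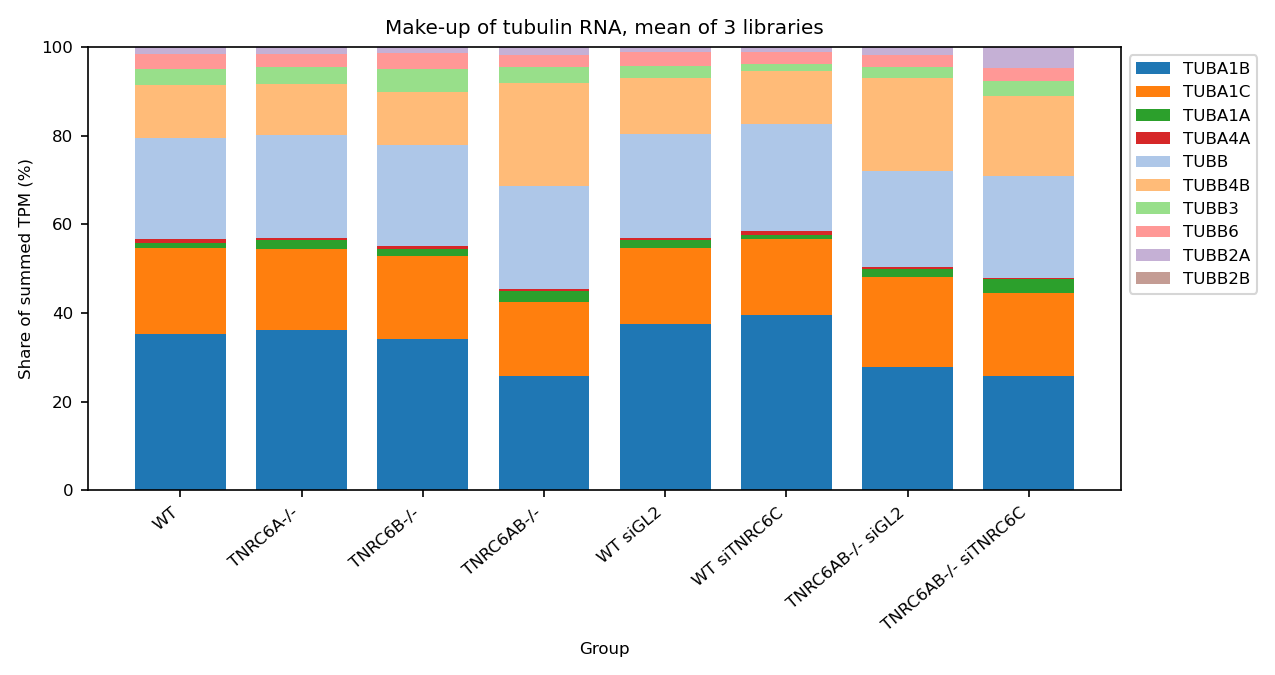
Bars show the mean share (%) of each tubulin gene in the summed TPM of the 10 genes, in the 8 groups of 3 libraries. The band of TUBB4B is widest in the 3 TNRC6AB-/- groups, at 17.9 to 23.2%, and the band of TUBA1B is narrowest there, at 25.8 to 27.9%.

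TUBB2A had the widest range of the 10 genes, 2.75 on the log2 scale between group means of CPM. Wild-type libraries held 19.9, 18.3 and 25.1 CPM, TNRC6A-/- 33.2, 37.7 and 29.1, TNRC6B-/- 19.6, 21.6 and 19.6, and TNRC6AB-/- 42.2, 51.6 and 40.2. After transfection, wild type siGL2 held 39.0, 38.9 and 28.9 CPM, wild type siTNRC6C 37.5, 34.8 and 38.6, TNRC6AB-/- siGL2 61.1, 56.1 and 55.5, and TNRC6AB-/- siTNRC6C 132, 137 and 141. The 3 double knockout groups were the highest, each clear of the next group in the order, whereas wild type siTNRC6C, wild type siGL2 and TNRC6A-/- overlapped, as did wild type and TNRC6B-/-. TNRC6AB-/- siTNRC6C stood 1.94 ± 0.13 (log2 fold change ± SE, 3 libraries a group) above wild type siGL2 and 1.24 ± 0.13 above TNRC6AB-/- siGL2. Without transfection TNRC6AB-/- was 1.08 ± 0.13 above wild type. Wild type siTNRC6C overlapped wild type siGL2, with a difference of 0.05 ± 0.13.

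TUBB2B, the near copy of TUBB2A, followed the same order at its head from a level that was far lower. It held 0.418 to 0.634 CPM in wild type, 0.532 to 1.03 in TNRC6A-/-, 0.282 to 0.543 in TNRC6B-/- and 0.784 to 1.20 in TNRC6AB-/-. With siGL2 it held 0.674 to 0.825 CPM in wild type and 0.747 to 1.74 in TNRC6AB-/-, and with siTNRC6C 0.676 to 1.09 and 2.82 to 3.21. TNRC6AB-/- siTNRC6C was 2.05 ± 0.29 above wild type siGL2 and 1.16 ± 0.27 above TNRC6AB-/- siGL2, and was clear of every other group. The counts behind these values were 13.0 to 141 reads a library, and part of them could be reads of TUBB2A.

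TUBB4B was highest in double knockout cells given siGL2, not in those given siTNRC6C. It held 197, 145 and 299 CPM in wild type, 254, 325 and 246 in TNRC6A-/-, 241, 207 and 166 in TNRC6B-/-, and 568, 644 and 572 in TNRC6AB-/-. Transfected cells held 442, 439 and 326 (wild type siGL2), 453, 428 and 457 (wild type siTNRC6C), 807, 757 and 687 (TNRC6AB-/- siGL2) and 567, 557 and 577 (TNRC6AB-/- siTNRC6C). All 9 double knockout libraries were above all 15 others. TNRC6AB-/- was 1.48 ± 0.19 above wild type on the log2 scale and TNRC6AB-/- siGL2 0.90 ± 0.18 above wild type siGL2. With siTNRC6C the double knockout cells were at 0.50 ± 0.18 against wild type siGL2 and at -0.40 ± 0.18 against TNRC6AB-/- siGL2, with no overlap either time.

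TUBB, the most abundant beta chain, held 377 to 929 CPM in wild type, 906 to 986 in TNRC6A-/-, 549 to 798 in TNRC6B-/- and 929 to 1138 in TNRC6AB-/-. Transfected groups ran from 1051 to 1411 (wild type siGL2), 1518 to 1569 (wild type siTNRC6C), 1187 to 1450 (TNRC6AB-/- siGL2) and 1234 to 1287 (TNRC6AB-/- siTNRC6C). TNRC6AB-/- was 0.53 ± 0.21 above wild type. These 2 groups did not overlap, but by a narrow margin, with 928.7 CPM in the lowest TNRC6AB-/- library and 928.6 in the highest of wild type. TNRC6AB-/- siGL2 differed from wild type siGL2 by 0.05 ± 0.20 and TNRC6AB-/- siTNRC6C by -0.03 ± 0.20, both with overlap.

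TUBB3 was on opposite sides of its siGL2 control in the 2 cell lines given siTNRC6C, and this difference between lines was not tested. In wild type it held 81.7, 86.0 and 69.4 CPM with siGL2 and 58.4, 52.3 and 56.2 with siTNRC6C, a difference of -0.51 ± 0.17. In TNRC6AB-/- cells it held 84.6, 80.6 and 74.6 with siGL2 and 99.6, 105 and 96.9 with siTNRC6C, a difference of 0.33 ± 0.17. Neither pair overlapped. Untransfected libraries held 33.3 to 71.3 CPM in wild type, 79.9 to 92.2 in TNRC6A-/-, 66.5 to 80.3 in TNRC6B-/- and 75.7 to 89.1 in TNRC6AB-/-. TUBB6 stayed between 41.2 and 105 CPM in the 24 libraries. It was 0.51 ± 0.12 higher in TNRC6A-/- and 0.35 ± 0.12 higher in TNRC6AB-/- than in wild type, and differed from wild type siGL2 by 0.03 in TNRC6AB-/- siGL2 and by -0.04 in TNRC6AB-/- siTNRC6C.

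**Figure D2:**
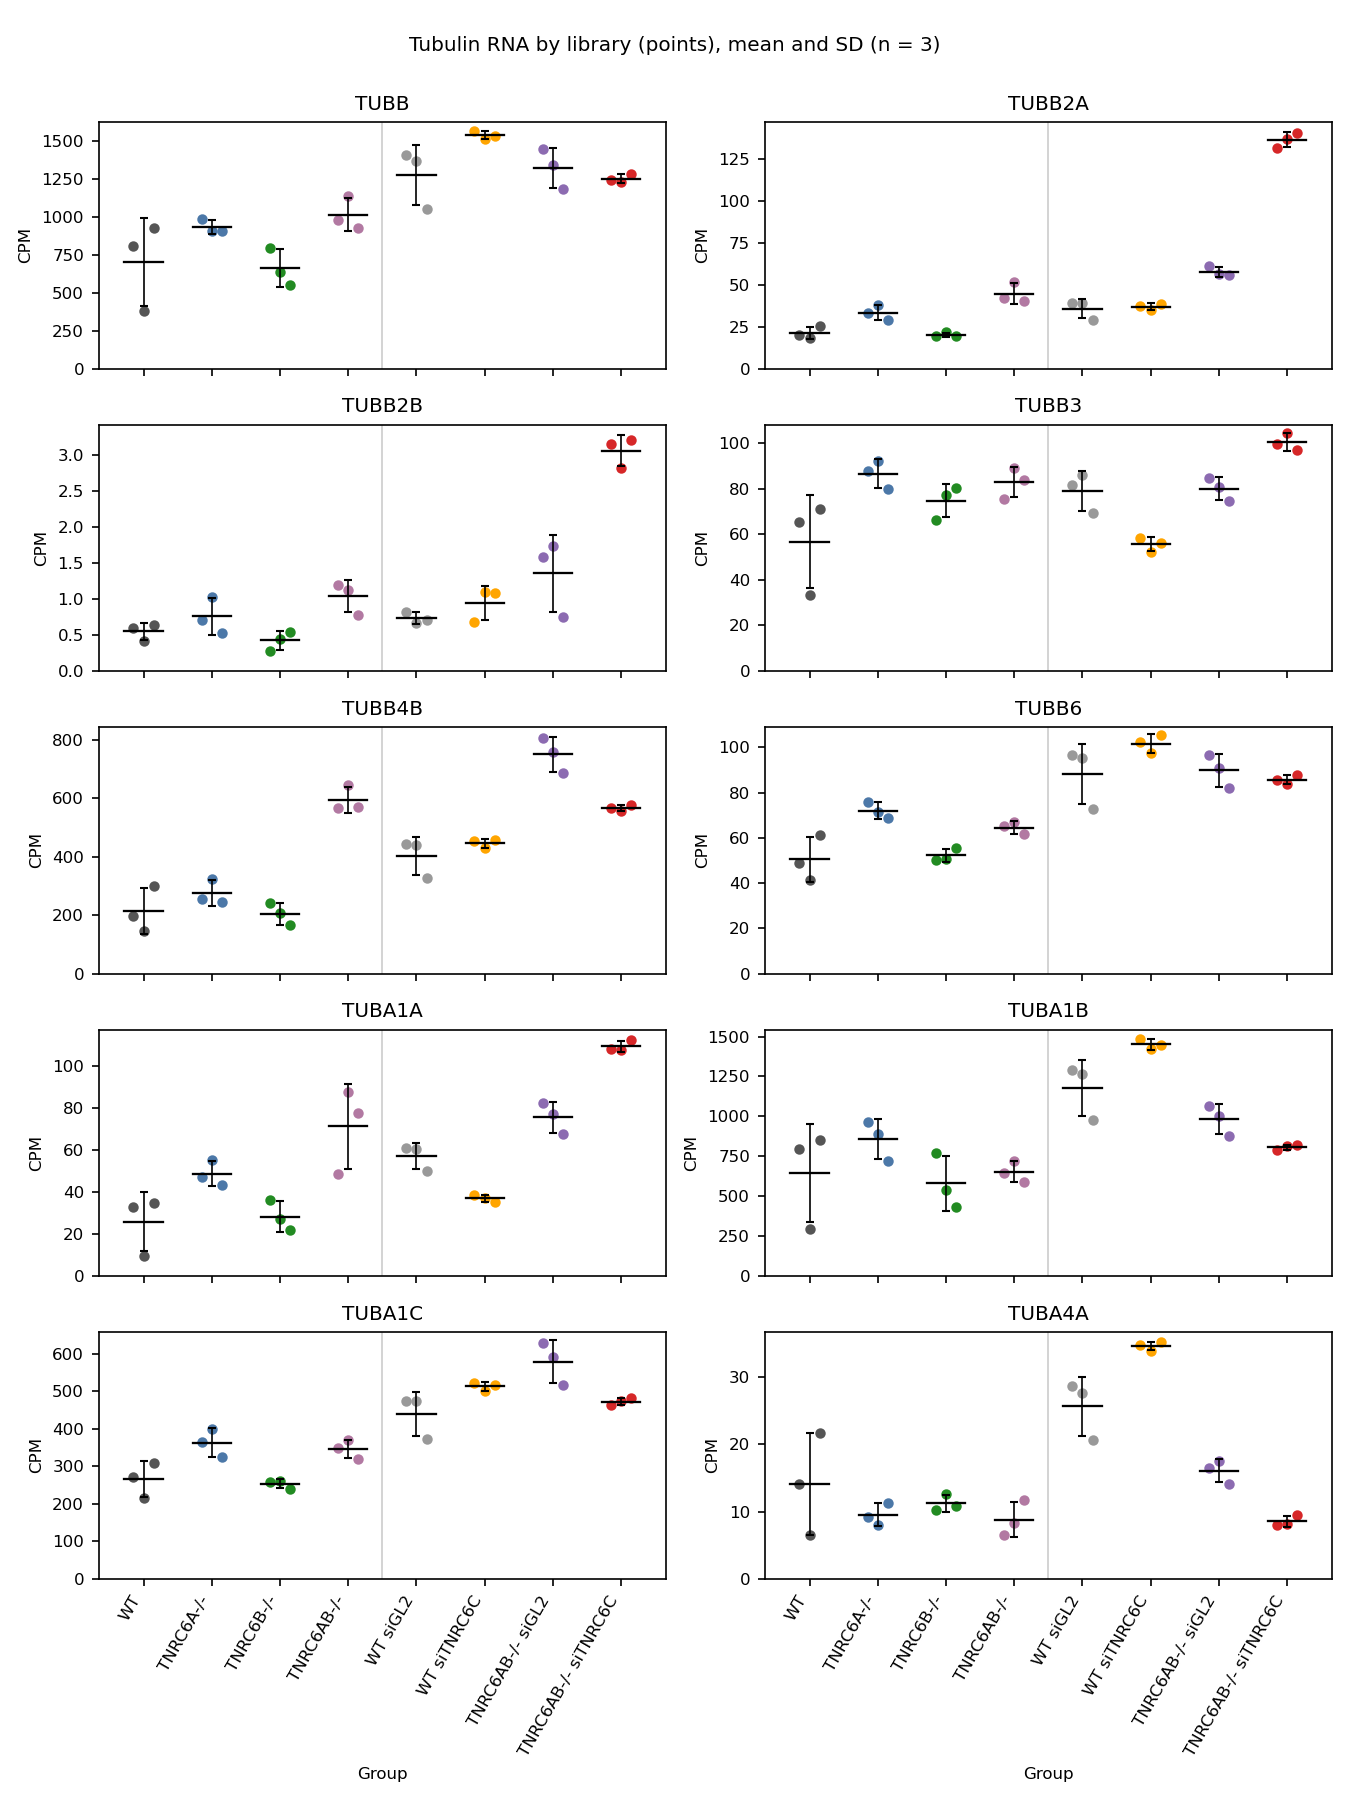
Each panel plots the CPM of a tubulin gene (linear axis from 0) in the 8 groups, with a point for each library, a line at the mean and bars of 1 SD (n = 3). TUBB2A at 132 to 141 CPM and TUBB2B at 2.82 to 3.21 CPM peak in TNRC6AB-/- siTNRC6C, and TUBB4B peaks at 687 to 807 CPM in TNRC6AB-/- siGL2.

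The alpha genes went in different directions. TUBA1A held 33.2, 9.80 and 34.9 CPM in wild type, 47.3, 55.3 and 43.7 in TNRC6A-/-, 36.1, 27.2 and 21.8 in TNRC6B-/-, and 48.6, 87.7 and 77.9 in TNRC6AB-/-. In transfected cells it held 61.0, 60.5 and 50.0 (wild type siGL2), 38.6, 37.3 and 35.2 (wild type siTNRC6C), 82.3, 77.1 and 67.9 (TNRC6AB-/- siGL2), and 108, 108 and 112 (TNRC6AB-/- siTNRC6C). The last group was clear of every other. TNRC6AB-/- was 1.46 ± 0.29 above wild type, and TNRC6AB-/- siTNRC6C 0.94 ± 0.28 above wild type siGL2. As with TUBB3, siTNRC6C libraries were lower than siGL2 libraries in wild type, by -0.63 ± 0.28, and higher in TNRC6AB-/- cells, by 0.53 ± 0.28.

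TUBA4A, an alpha chain found in many adult tissues, had its lowest mean CPM in TNRC6AB-/- siTNRC6C, the group where TUBB2A was highest. It held 14.1, 6.46 and 21.7 CPM in wild type, 9.26, 7.96 and 11.3 in TNRC6A-/-, 10.3, 12.7 and 10.8 in TNRC6B-/-, and 6.49, 8.23 and 11.7 in TNRC6AB-/-, and these 4 groups overlapped. Transfected cells held 28.7, 27.7 and 20.6 (wild type siGL2), 34.8, 34.0 and 35.2 (wild type siTNRC6C), 16.6, 17.5 and 14.2 (TNRC6AB-/- siGL2), and 7.94, 8.22 and 9.43 (TNRC6AB-/- siTNRC6C). The 4 transfected groups did not overlap one another, but TNRC6AB-/- siTNRC6C overlapped the untransfected wild-type, TNRC6A-/- and TNRC6AB-/- groups. TNRC6AB-/- siTNRC6C was at -1.59 ± 0.27 against wild type siGL2 and at -0.91 ± 0.26 against TNRC6AB-/- siGL2.

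TUBA1B, the most abundant of the set by TPM, held 293 to 853 CPM in wild type, 723 to 966 in TNRC6A-/-, 431 to 772 in TNRC6B-/- and 590 to 722 in TNRC6AB-/-. It held 978 to 1290 in wild type siGL2, 1421 to 1484 in wild type siTNRC6C, 879 to 1064 in TNRC6AB-/- siGL2 and 789 to 821 in TNRC6AB-/- siTNRC6C. TNRC6AB-/- siTNRC6C was at -0.55 ± 0.25 against wild type siGL2, with no overlap. TUBA1C ran from 214 CPM in a wild-type library to 630 in a TNRC6AB-/- siGL2 library. It was 0.45 ± 0.12 higher in TNRC6A-/- and 0.38 ± 0.12 higher in TNRC6AB-/- than in wild type, and 0.40 ± 0.12 higher in TNRC6AB-/- siGL2 than in wild type siGL2.

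Counted over the 10 genes, 5 were higher in TNRC6A-/- than in wild type with no overlap and 0 lower, beside 17.7% and 13.7% of all 24153 genes tested. In TNRC6B-/- cells 0 were higher and 0 lower, since all 10 ranges overlapped those of wild type (background 6.81% higher and 4.36% lower). In TNRC6AB-/- cells 8 were higher and 0 lower (19.4% and 14.6%), all but TUBA1B and TUBA4A, with TUBB clear only by the narrow margin given above. The median log2 fold change of the 10 was 0.46, -0.06 and 0.54 in these comparisons, and that of all genes 0.02, 0.04 and 0.01. The 3 comparisons share the wild-type libraries. Since the genes were chosen with these values known, nothing is read from the counts.

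Against wild type siGL2, wild type siTNRC6C had 5 of the 10 higher and 2 lower without overlap (background 16.3% and 12.7%), TNRC6AB-/- siTNRC6C also 5 and 2 (28.2% and 32%), and TNRC6AB-/- siGL2 4 and 1 (18.4% and 20.5%). These 3 share their control libraries. The members differed. TUBB3 and TUBA1A were the pair that was lower in wild type siTNRC6C, and both were among the 5 that were higher in TNRC6AB-/- siTNRC6C, with TUBB2A, TUBB2B and TUBB4B. TUBA1B and TUBA4A, higher in the first, were the pair that was lower in the second. Against TNRC6AB-/- siGL2, TNRC6AB-/- siTNRC6C had TUBB2A, TUBB2B, TUBB3 and TUBA1A higher and TUBB4B, TUBA1B, TUBA1C and TUBA4A lower (background 19% and 27.9%).

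**Figure D3:**
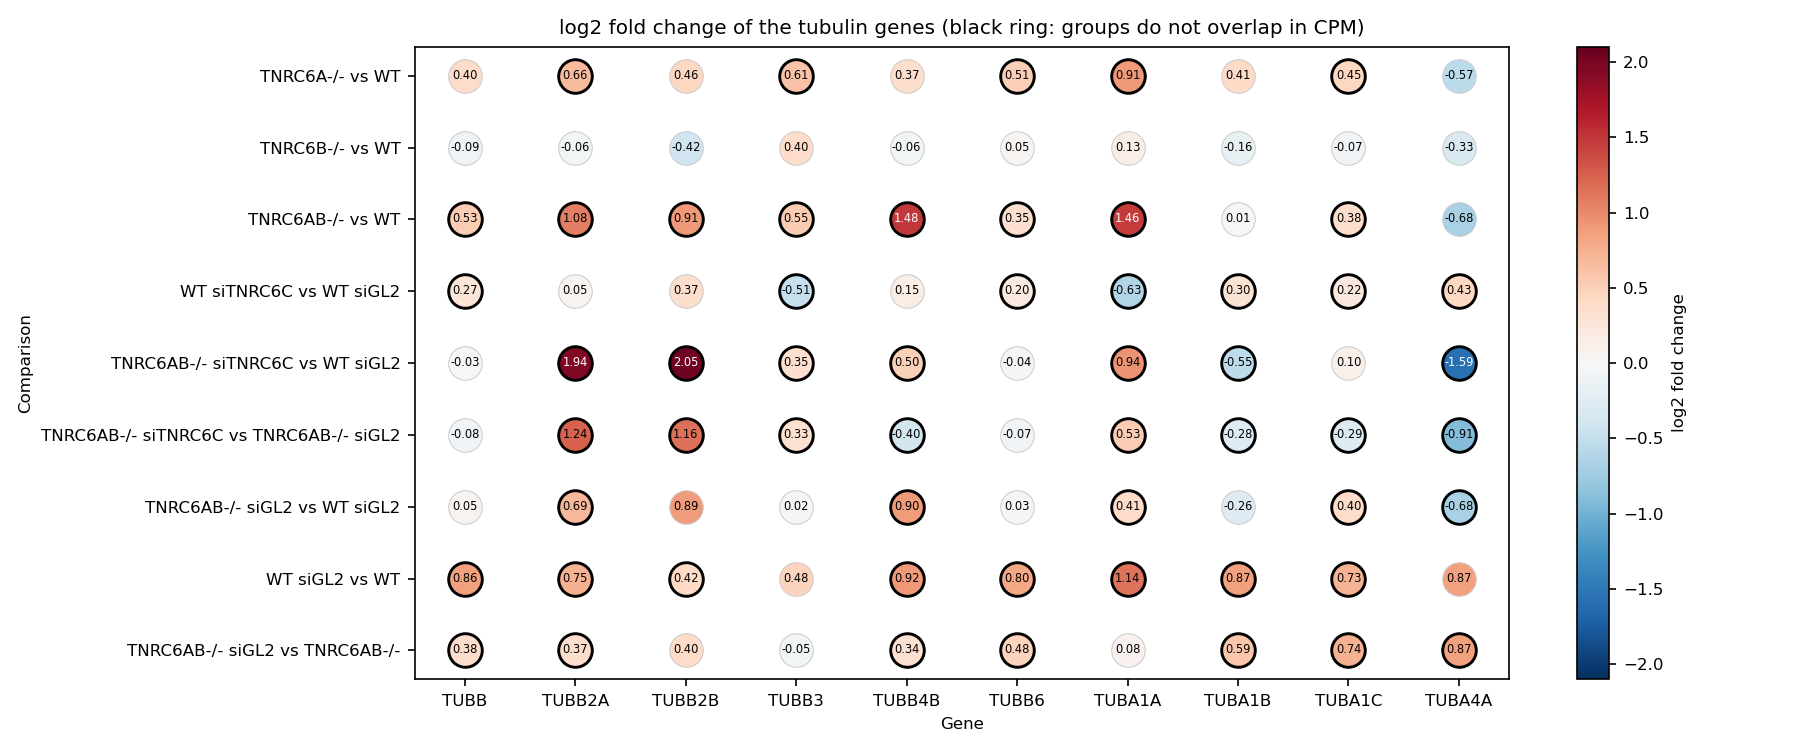
Each circle gives the log2 fold change (color and number) of a tubulin gene (columns) in a comparison of 2 groups of 3 libraries (rows), and a black ring marks groups that do not overlap in CPM. The deepest reds are TUBB2A (1.94) and TUBB2B (2.05), and the deepest blue is TUBA4A (-1.59), all in TNRC6AB-/- siTNRC6C against wild type siGL2.

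Cells given siGL2 were also set beside untransfected cells of the same genotype. In wild type 8 of the 10 were higher and 0 lower without overlap (background 19.6% and 15.9%), with a median of 0.83 and overlap for TUBB3 and TUBA4A, and in TNRC6AB-/- cells 7 and 0 (17.3% and 18.4%), with a median of 0.39 and overlap for TUBB2B, TUBB3 and TUBA1A. Nothing is read from these counts either. The 16 genes of G2 and mitosis moved with this difference. Their summed CPM was 1574 to 2985 in wild type and 3541 to 4219 in wild type siGL2, and 2171 to 2941 in TNRC6AB-/- and 4079 to 4741 in TNRC6AB-/- siGL2. Of the 16, 15 rose in each of these comparisons (adjusted p from edgeR's quasi-likelihood test), beside 16.4% and 9.73% of all genes. In wild type, a fit of the 6 libraries alone called only 24 of 21209 genes higher. Of the 16 genes of G2 and mitosis, 0 passed in the TNRC6A-/-, TNRC6B-/- or TNRC6AB-/- comparison with wild type. Their part in the tubulin values was not tested, and the duplex, the lipid and the plating that went with it cannot be told apart. Given siTNRC6C, the summed CPM of the 16 genes was 3464 to 3606 in TNRC6AB-/- cells and 4223 to 4368 in wild type. The gap between a transcript's length and its effective length, which follows fragment length, was 196.7 to 214.1 bases in transfected libraries. In untransfected libraries it was 165.4 to 191.5, so fragment length cannot be told apart from transfection either, and its part was not tested.

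Transcripts within a gene were tested because the choice of genes had not used their shares. A share is taken over the gene's summed reads, which the choice did use, so these tests are not independent of it. Of 76 annotated transcripts of the 10 genes 48 passed the filter, from 9 of the genes. TNRC6A-/- cells differed most from wild type, with 1 share higher and 7 lower at an adjusted p below 0.05, beside 1.41% and 2.36% of 86134 transcripts. Against wild type, 0 shares were higher and 2 lower in TNRC6AB-/- cells (background 0.305% and 0.323%), and against wild type siGL2 0 were higher and 2 lower in TNRC6AB-/- siTNRC6C (1.95% and 1.4%). Between siGL2 and no transfection 0 were higher and 1 lower in wild type (0.447% and 0.969%), and likewise in TNRC6AB-/- cells (0.18% and 0.244%). In edgeR, 0 of the 48 passed in either direction in the other 4 comparisons. At the same adjusted p the background was 0.0209% higher and 0.0348% lower for TNRC6B-/- against wild type, and 0.00464% and 0.00232% for wild type siTNRC6C against wild type siGL2. It was 0.00813% and 0.0372% for TNRC6AB-/- siTNRC6C against TNRC6AB-/- siGL2, and 0.359% and 0.293% for TNRC6AB-/- siGL2 against wild type siGL2. Before adjustment 4, 4, 4 and 7 of the 48 had a p below 0.05 in these comparisons, in the same order.

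TUBB2A-202, a non-coding transcript that keeps part of the last intron of TUBB2A, was the share that passed most often. It starts with the coding form at chromosome 6, 3157526, on the minus strand and ends inside the last exon at 3154579. It took 7.50, 7.99 and 7.78% of the gene's reads in wild type, 1.78, 2.47 and 3.05% in TNRC6A-/-, 4.78, 3.86 and 4.39% in TNRC6B-/-, and 3.37, 2.26 and 3.17% in TNRC6AB-/-. With siGL2 it took 3.32, 4.37 and 4.91% in wild type and 2.39, 2.82 and 3.14% in TNRC6AB-/-, and with siTNRC6C 3.40, 2.86 and 3.56% and 1.74, 1.67 and 1.63%. Wild type was the highest group and TNRC6AB-/- siTNRC6C the lowest, overlapping no other.

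The share of TUBB2A-202 fell in TNRC6A-/- (log2 change -1.69 ± 0.22, adjusted p = 1.1e-04) and in TNRC6AB-/- siTNRC6C against wild type siGL2 (-1.32 ± 0.21, adjusted p = 0.0015), and both calls held in all 9 alternative fits. It also fell in TNRC6AB-/- against wild type (-1.41 ± 0.21, adjusted p = 0.0025), where a fit of the 6 libraries alone gave 0.206, and in wild type siGL2 against wild type (-0.89 ± 0.21, adjusted p = 0.0444), where 7 of 9 alternatives lost it. Its reads numbered 17.5 to 104 a library: 45.4 to 64.6 in wild type, 17.5 to 28.9 in TNRC6A-/-, 47.0 to 60.6 in wild type siGL2 and 86.5 to 104 in TNRC6AB-/- siTNRC6C. In the last of these groups the transcript's own reads were above those of wild type siGL2, and the total of the gene was higher by more, so the share was lower.

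TUBA1A-201, a coding transcript with a different first exon, had shares of 9.69, 13.6 and 10.4% in wild type and 3.03, 4.74 and 4.06% in TNRC6A-/- (-1.50 ± 0.28, adjusted p = 0.00359, and 0.0574 in the fit of 6 libraries). Its share was also lower in TNRC6AB-/- against wild type (adjusted p = 0.044) and in TNRC6AB-/- siTNRC6C against wild type siGL2 (adjusted p = 0.0454), and 7 of 9 alternatives lost each of these calls. TUBA1A-208 (adjusted p = 0.0284) was lost in 7 of 9 too.

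TUBA1C-203, annotated as keeping an intron, took 6.89, 5.21 and 5.27% of TUBA1C reads in TNRC6A-/- and 0.0881, 0.914 and 0.537% in wild type. In the other 6 groups it took between 0.0209% and 1.18%, so that TNRC6A-/- stood alone. Its 2 exons lie at chromosome 12, 49269786 to 49273166. The intron between them is removed, as it is in the coding transcript TUBA1C-202. Only the start of the first exon reaches into an intron of TUBA1C-202, and most bases lie in coding exons. Whether more of an intron was kept in TNRC6A-/- was therefore not tested by this share. The log2 change of the TUBA1C-203 share was 3.50 ± 0.78 (adjusted p = 0.0147), lost in 3 of 9 alternatives, with 0.078 in the fit of 6 libraries. The coding transcript TUBA1C-204 went from 15.4, 14.7 and 14.0% to 11.4, 11.0 and 11.7% (-0.37 ± 0.04, adjusted p = 5.5e-05), which held in all 9. TUBA1C-201 fell from a range of 3.47 to 3.88% to 2.05 to 2.67% (adjusted p = 0.00245, lost in 1 alternative).

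The remaining calls were small. TUBB3-206 went from 7.44, 10.0 and 5.43% in wild type to 3.46, 4.02 and 4.33% in TNRC6A-/- (adjusted p = 0.0144, lost in 3 of 9). TUBA1B-201, which keeps an intron, went from 1.43, 1.51 and 1.14% in TNRC6AB-/- to 0.726, 0.622 and 0.901% in TNRC6AB-/- siGL2 (adjusted p = 0.0461, lost in 7 of 9). TUBA1B-208 passed in TNRC6A-/- (adjusted p = 0.00157) on 0 reads in each TNRC6A-/- library against 3.67 to 5.07 in wild type, too few for a fold change. The gap between a transcript's length and its effective length, which follows fragment length, was 165.4 to 171.6 bases in TNRC6A-/- libraries. It was 182.1 to 191.5 in the other untransfected libraries and 196.7 to 214.1 in transfected ones, and its part in these shares was not tested.

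**Figure D4:**
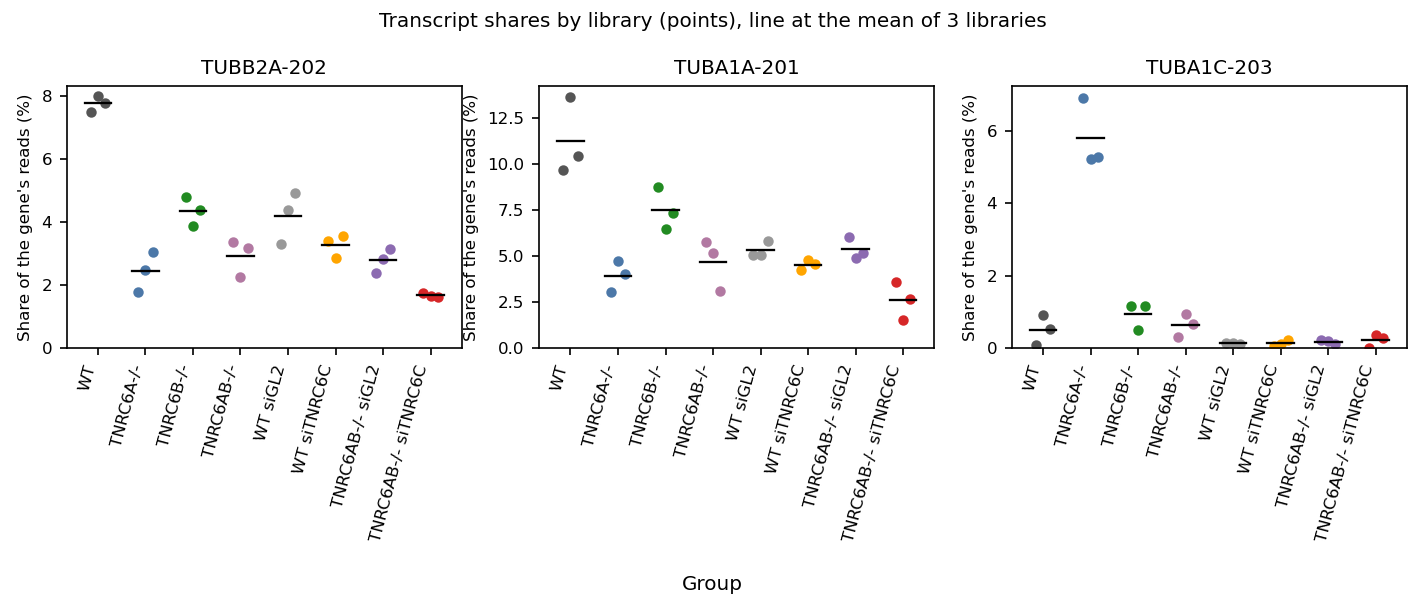
Points give the share (%) of a gene's reads held by TUBB2A-202, TUBA1A-201 and TUBA1C-203 in each library, and lines the mean of 3 libraries. TUBB2A-202 lies at 7.50 to 7.99% in wild type and 1.63 to 1.74% in TNRC6AB-/- siTNRC6C, and TUBA1C-203 reaches 5.21 to 6.89% in TNRC6A-/- alone.

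The 127 genes around tubulin formed 7 lists, and 114 of them passed the filter. In TNRC6AB-/- against wild type 30 rose and 13 fell, beside 17.2% and 12.3% of all genes. In TNRC6A-/- 10 rose and 8 fell (8.52% and 5.47%), and in TNRC6B-/- 2 rose and 0 fell (2.2% and 0.94%). Against wild type siGL2, 24 rose and 43 fell in TNRC6AB-/- siTNRC6C (17% and 25.2%), 14 rose and 19 fell in TNRC6AB-/- siGL2 (9.17% and 12.5%), and 1 rose and 1 fell in wild type siTNRC6C (0.397% and 0.534%). Between TNRC6AB-/- siTNRC6C and TNRC6AB-/- siGL2, 1 rose and 10 fell (2.19% and 4.36%). All adjusted p-values here are from edgeR's quasi-likelihood test over 24153 genes, and values are mean CPM ± SD of 3 libraries.

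Of 22 genes for proteins that fold tubulin, 15 fell and 1 rose in double knockout cells given siTNRC6C against wild type siGL2 and 6 did not pass, with a median log2 fold change of -0.57 against 0.01 over all genes. CCT5, a subunit of the ring-shaped CCT chaperonin, fell from 478 ± 71.2 to 172 ± 7.61 CPM (-1.47 ± 0.12, adjusted p = 2.61e-09). TBCA, the cofactor that holds beta tubulin, fell from 156 ± 24.5 to 68.1 ± 2.54 CPM (-1.19 ± 0.14, adjusted p = 6.5e-07), and CCT8 from 476 ± 68.0 to 250 ± 7.76 CPM (adjusted p = 6.47e-06). All 3 calls held in the 13 alternative fits. With siGL2 alone 7 of the 22 fell and 2 rose in double knockout cells, among them CCT5 (-1.16 ± 0.12, adjusted p = 2.22e-07), which fell, and TBCEL (0.58 ± 0.10, adjusted p = 0.000172), a tubulin-destabilizing relative of TBCE, which rose.

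Without transfection, 5 of the 22 folding genes rose and 4 fell in TNRC6AB-/- cells. CCT5 fell from 304 ± 50.5 to 118 ± 3.98 CPM (-1.36 ± 0.12, adjusted p = 1.44e-08), and TBCE, the cofactor that parts the dimer, rose from 20.9 ± 3.04 to 33.0 ± 2.81 CPM (0.66 ± 0.10, adjusted p = 2.69e-05), both in all 13 alternatives. Between siTNRC6C and siGL2 in double knockout cells 6 fell and 0 rose. TBCA (-0.57 ± 0.14, adjusted p = 0.018), CCT7 (-0.53 ± 0.13, adjusted p = 0.0182) and the prefoldin subunit PFDN6 (-0.52 ± 0.13, adjusted p = 0.0216) were the leading calls, and each was lost when any of 5 of the 6 libraries was left out, with adjusted p up to 0.108, 0.111 and 0.140.

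Of 6 genes of tubulin autoregulation, 0 rose and 2 fell in TNRC6A-/-, 2 rose and 0 fell in TNRC6AB-/-, and 1 rose and 3 fell in TNRC6AB-/- siTNRC6C against wild type siGL2. CNOT1 fell in TNRC6A-/- from 420 ± 21.6 to 268 ± 20.8 CPM (-0.65 ± 0.09, adjusted p = 2.06e-05) and in TNRC6AB-/- siTNRC6C from 516 ± 41.3 to 366 ± 1.74 CPM (-0.50 ± 0.09, adjusted p = 8.81e-05), in all 13 alternatives each time. TTC5 fell in that second comparison, from 29.6 ± 0.71 to 21.9 ± 0.634 CPM (-0.43 ± 0.09, adjusted p = 4.7e-04). SCAPER rose in TNRC6AB-/- against wild type (0.45 ± 0.11, adjusted p = 0.00276), with an adjusted p of 0.108 in the fit of 6 libraries, and CNOT10 fell in TNRC6A-/- (-0.54 ± 0.10, adjusted p = 5.79e-04), with 0.0791 on length-scaled counts.

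Among tubulins outside the 10, 7 of 13 passed the filter. TUBE1, the epsilon tubulin of centrioles, fell from 46.7 ± 28.4 to 10.2 ± 0.308 CPM in TNRC6AB-/- cells (-2.19 ± 0.31, adjusted p = 8.5e-06) and from 24.7 ± 2.34 to 11.0 ± 0.605 in TNRC6AB-/- siTNRC6C against wild type siGL2 (-1.17 ± 0.30, adjusted p = 0.00323). TUBG1, the gamma tubulin that starts microtubules, rose in TNRC6A-/- from 46.9 ± 10.3 to 96.7 ± 7.76 CPM (1.04 ± 0.13, adjusted p = 6.51e-06). It also rose in TNRC6AB-/- against wild type, to 62.5 ± 0.676 CPM (0.41 ± 0.13, adjusted p = 0.0167, lost in 4 of 13 alternatives), and fell in TNRC6AB-/- siTNRC6C against wild type siGL2 (-0.61 ± 0.13, adjusted p = 5.31e-04). In that last comparison 6 of the 10 genes of the gamma-tubulin ring complex, which seeds microtubules, fell and 1 rose, led by MZT1 (-1.02 ± 0.16, adjusted p = 1.8e-05), MZT2A (-0.73 ± 0.14, adjusted p = 1.45e-04) and NEDD1 (-0.52 ± 0.11, adjusted p = 4.76e-04). In TNRC6AB-/- against wild type, 0 of these 10 passed.

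Enzymes that modify tubulin gave calls both ways. In TNRC6AB-/- cells 8 of 25 rose and 2 fell. HDAC6, which removes acetyl groups from alpha tubulin, rose from 45.7 ± 3.06 to 66.1 ± 2.93 CPM (0.53 ± 0.08, adjusted p = 3.54e-05). VASH2, which removes the last tyrosine of alpha tubulin, rose from 9.63 ± 4.36 to 19.4 ± 3.24 CPM (1.01 ± 0.21, adjusted p = 7.2e-04, and 0.0683 in the fit of 6 libraries), and in TNRC6AB-/- siTNRC6C against wild type siGL2 from 14.8 ± 1.03 to 33.8 ± 0.783 CPM (1.19 ± 0.21, adjusted p = 7.08e-05). In the latter, where 6 of 25 rose and 5 fell, the glutamylase TTLL4 rose (0.49 ± 0.08, adjusted p = 3.71e-05) and the deglutamylase AGBL5 fell (-0.71 ± 0.14, adjusted p = 2.35e-04).

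Wild type siTNRC6C had its only calls in this list, VASH1 lower (-0.66 ± 0.11, adjusted p = 0.00476, and 0.0615 without replicate 3 of wild type siTNRC6C) and TTLL4 higher (0.39 ± 0.08, adjusted p = 0.019, lost in 8 of 13 alternatives). In TNRC6A-/- cells the glutamylase TTLL5 fell from 83.0 ± 12.6 to 40.8 ± 2.14 CPM (-1.03 ± 0.16, adjusted p = 1.14e-04), in all 13 alternatives.

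Microtubule-associated proteins held the largest fold change of the genes named here. DCLK1, a doublecortin-like kinase that binds microtubules, was at 1.76 ± 0.297 CPM in wild type siGL2, 3.46 ± 2.34 in untransfected TNRC6AB-/-, 29.4 ± 2.01 in TNRC6AB-/- siGL2 and 58.7 ± 4.12 in TNRC6AB-/- siTNRC6C. Its log2 fold changes over wild type siGL2 were 4.06 ± 0.41 (adjusted p = 1.61e-07) and 5.05 ± 0.43 (adjusted p = 3.71e-09). TNRC6AB-/- siGL2 was 3.08 ± 0.39 above untransfected TNRC6AB-/- (adjusted p = 1.03e-05). MAP2, a protein of neuronal dendrites, rose from 12.3 ± 0.165 to 30.1 ± 2.11 (adjusted p = 3.4e-04) and 39.3 ± 0.737 CPM (adjusted p = 6.94e-06). In TNRC6AB-/- without transfection 5 of 20 rose and 3 fell, with MTUS1 down from 185 ± 46.4 to 65.5 ± 18.6 CPM (-1.50 ± 0.17, adjusted p = 3.12e-07) and TPX2, a spindle protein, up from 216 ± 38.5 to 358 ± 51.2 CPM (0.73 ± 0.14, adjusted p = 3.32e-04). All these calls held in the 13 alternatives. The summed CPM of the markers of other cells was 60.4 to 64.2 in TNRC6AB-/- siTNRC6C, 43.6 to 47.6 in TNRC6AB-/- siGL2 and 31.04 to 37.1 in wild type siGL2. In the first against the last, 4 of the 11 tested were higher and 1 lower, and their part in these changes was not tested. The list includes neuronal genes, but its highest medians over the libraries were those of COL1A1 (10.8 TPM) and ACTA2 (5.61 TPM). The neuronal SYP, RBFOX3 and ELAVL3 had medians of 0.448, 0.230 and 0.183 TPM, so the sum does not measure neuronal genes.

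Of 24 regulators of microtubule ends and severing, 7 rose and 2 fell in TNRC6AB-/- cells. KATNAL1, a severing enzyme, rose from 30.5 ± 10.5 to 79.5 ± 8.40 CPM (1.38 ± 0.19, adjusted p = 6.82e-06), and MAPRE2, which binds growing ends, from 24.1 ± 6.01 to 39.6 ± 3.29 CPM (0.71 ± 0.13, adjusted p = 2.37e-04). KATNAL1 was also higher in TNRC6AB-/- siGL2 than in wild type siGL2 (1.08 ± 0.19, adjusted p = 1.84e-04). In TNRC6AB-/- siTNRC6C 6 rose and 6 fell against wild type siGL2. CLIP2, a linker at growing ends, fell from 61.6 ± 6.32 to 23.3 ± 0.914 CPM (-1.40 ± 0.13, adjusted p = 1.07e-08), and CAMSAP1, which caps the minus end, rose from 77.7 ± 8.33 to 136 ± 1.87 CPM (0.81 ± 0.12, adjusted p = 6.85e-06).

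Between siGL2 and untransfected cells, in wild type 55 of the 114 rose and 4 fell (background 16.4% and 8.41%), among them 17 of 22 folding genes that rose and 0 that fell, and in TNRC6AB-/- 34 rose and 12 fell (9.73% and 10.4%). CCT5 rose in both, by 0.65 ± 0.12 (adjusted p = 9.95e-04) and 0.86 ± 0.12 (adjusted p = 3.32e-05). In wild type, a fit of the 6 libraries alone made 2 calls in place of 59, with 0.0703 for CCT5. The G2 and mitosis genes given above rose in the same comparisons, and their part in these values was not tested.

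**Figure D5:**
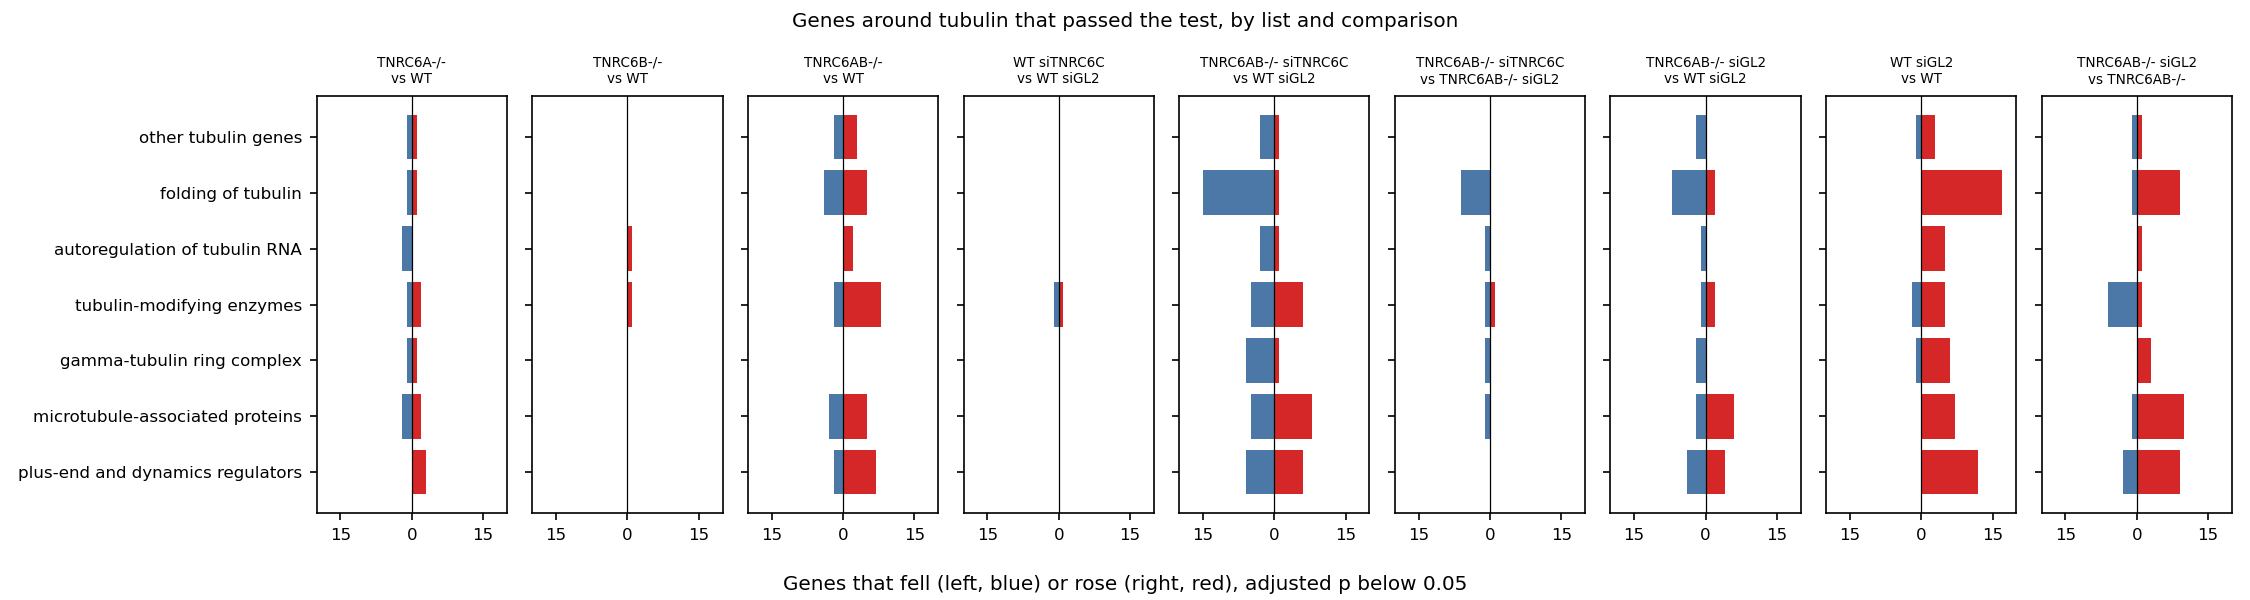
Bars count the genes of 7 lists around tubulin that rose (right) or fell (left) at an adjusted p below 0.05 in 9 comparisons. Of the folding genes 15 fell in TNRC6AB-/- siTNRC6C against wild type siGL2 and 17 rose in wild type siGL2 against wild type.

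The genes whose group means ran most like those of TUBB2A over the 8 groups, of 11754 compared, were PXDN (Pearson r = 0.978), ATP10D (0.978) and ZFYVE26 (0.975). For TUBB2B they were PCSK5 (0.990), HIC2 (0.982) and ZFYVE26 (0.972). The 8 points share libraries, depth and scaling, and the values describe likeness only.

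The 300 bases around each start site were also searched, on both strands, for the letters CCAAT, a common promoter box. TUBB, TUBB2B, TUBB4B, TUBA1A and TUBA1C held them, 5 of 10, beside 35.7% of 27305 RefSeq promoters of the same length. The letters TTTGAA occurred in 2 of the 10 (TUBB4B and TUBA1C), beside 15.4% of promoters.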

How the data were processed

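RNA of 24 HCT116 libraries was sequenced with a strand-specific Illumina kit on total RNA, extracted with Trizol by the labels and with RNeasy columns by the study's methods. Per the file headers, the authors deposited a Salmon table per library with 199612 transcripts, their estimated counts and TPM. The submitters' processing notes name Salmon 0.11.0, STAR 2.5.3a, DESeq2 and hg38. Of the transcripts 199368 matched GENCODE 29 and 197048 had the same length, and the 244 unmatched held at most 0.054% of a library's reads.

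Estimated counts and TPM were summed over the transcripts of each gene, and counts were rounded for testing. Libraries were scaled by TMM (edgeR 4.0.16, R 4.3.3), genes were filtered with filterByExpr, and a mean per group was fitted over all 24 libraries with the quasi-likelihood test and Benjamini-Hochberg adjustment at 0.05. An SE is the log2 fold change over the square root of its F. Transcript shares were fitted likewise over 86134 transcripts with the gene's log total as offset. The steps were tested on simulated data. The tubulin genes and the companion lists were chosen with earlier results of these data known. All 10 tubulin genes are named. Of the companions, up to 3 passing genes with the smallest adjusted p were eligible per list and comparison, with a mean of at least 5 CPM and groups that do not overlap, and a choice of these is printed. Of transcripts, those that passed are named. Likeness was computed for the 2 tubulin genes of widest range and 3 genes are named for each.

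Alternatives were DESeq2 1.42.0, its size factors, no filter or a mean of 10 reads, length-scaled counts, the 6 compared libraries alone, a replicate block, reads for shares, pseudogenes added, and each library left out. Leaving out the farthest library of each untransfected group was chosen after seeing the data. Precision was lowest for TUBB2B and for transcripts of few reads, where small differences may not be detectable at this depth. Some items are not reported here.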

Additional observations from a re-analysis of the deposited data

Results flagged for a closer look

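Among the tubulin genes, 5 lay on opposite sides of their siGL2 control after siTNRC6C in the 2 cell lines, with no overlap between the 3 siTNRC6C and the 3 siGL2 libraries in either line. The difference between the lines was not tested for any of the 5. Of all 24153 genes tested, 16.3% were higher and 12.7% lower without overlap in wild type, and 19% and 27.9% in TNRC6AB-/- cells. The share of all genes on opposite sides in both lines was not computed. Since the tubulin genes were chosen with these values known, nothing is read from the count. TUBB3 had a log2 fold change (± SE) of -0.51 ± 0.17 in wild-type cells and 0.33 ± 0.17 in TNRC6AB-/- cells. TUBA1A had -0.63 ± 0.28 and 0.53 ± 0.28 in the same order. TUBA1B had 0.30 ± 0.25 in wild type and -0.28 ± 0.25 in TNRC6AB-/- cells, and TUBA1C had 0.22 ± 0.12 and -0.29 ± 0.12. TUBA4A had 0.43 ± 0.26 and -0.91 ± 0.26. The 2 lines also differ in what siTNRC6C leaves, since wild-type cells keep TNRC6A and TNRC6B.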

How the results depend on the processing

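Of 1170 values under alternatives for 90 fold changes, 1169 moved by less than the spread between replicates, which was wide in wild type, and 1 by more. The share of beta chains by reads in place of TPM was 52.6% in wild type, 52.4% in TNRC6A-/-, 54.0% in TNRC6B-/-, 62.6% in TNRC6AB-/-, 58.3% in TNRC6AB-/- siGL2, 60.6% in TNRC6AB-/- siTNRC6C, 51.7% in wild type siTNRC6C and 52.5% in wild type siGL2.

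Counts of companion genes that passed depended on the libraries fitted. With the 6 compared libraries alone they went from 18 to 6 (TNRC6A-/- against wild type), 2 to 0 (TNRC6B-/-), 43 to 16 (TNRC6AB-/-), 2 to 24 (wild type siTNRC6C against wild type siGL2), 11 to 64 (TNRC6AB-/- siTNRC6C against TNRC6AB-/- siGL2), 33 to 64 (TNRC6AB-/- siGL2 against wild type siGL2) and 59 to 2 (wild type siGL2 against wild type). In TNRC6B-/- length-scaled counts gave 0. For wild type siTNRC6C they gave 1, as did no filter. DESeq2 gave 20 for TNRC6AB-/- siTNRC6C against TNRC6AB-/- siGL2. Without the farthest library of each untransfected group, chosen after seeing the data, counts were 22 in TNRC6B-/-, 8 for wild type siTNRC6C, 41 for TNRC6AB-/- siTNRC6C against TNRC6AB-/- siGL2 and 57 for TNRC6AB-/- siGL2 against wild type siGL2. The cause was not tested. With each library left out in turn, counts ran from 9 to 24 (TNRC6A-/-, lowest without its replicate 2), 1 to 6 (TNRC6B-/-, highest without its replicate 1), 33 to 45 (TNRC6AB-/-), 0 to 1 (wild type siTNRC6C), 57 to 63 (TNRC6AB-/- siTNRC6C against wild type siGL2), 1 to 12 (TNRC6AB-/- siTNRC6C against TNRC6AB-/- siGL2), 19 to 33 (TNRC6AB-/- siGL2 against wild type siGL2), 36 to 66 (wild type siGL2 against wild type, lowest without wild type siGL2 replicate 1) and 29 to 45 (TNRC6AB-/- siGL2 against TNRC6AB-/-, lowest without TNRC6AB-/- siGL2 replicate 1). The median log2 fold change of the 10 tubulin genes ran from 0.31 to 0.67 in TNRC6A-/-, -0.26 to 0.14 in TNRC6B-/- and 0.27 to 0.76 in TNRC6AB-/-. For wild type siGL2 against wild type it ran from 0.58 to 1.04.

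Tubulin transcripts whose share passed went from 8 to 2 in TNRC6A-/-, 2 to 0 in TNRC6AB-/-, 2 to 1 in TNRC6AB-/- siTNRC6C against wild type siGL2, and 1 to 0 in both comparisons of siGL2 with no transfection when the 6 libraries were fitted alone. A minimum mean of 10 reads gave 2 for wild type siGL2 against wild type. Leaving out each library gave 6 to 9 (TNRC6A-/-), 0 to 1 (TNRC6B-/-), 1 to 3 (TNRC6AB-/-), 1 to 3 (TNRC6AB-/- siTNRC6C against wild type siGL2), 0 to 2 (wild type siGL2 against wild type) and 0 to 1 (TNRC6AB-/- siGL2 against TNRC6AB-/-). Replicate numbers did not pair the libraries throughout, since correlations of same-numbered libraries ran from -0.322 to 0.354 and no comparison had all 3 above 0.1. The highest, 0.354 and 0.219, were those of replicates 3 and 1 between the siGL2 groups. Whether some libraries shared a batch was not tested. With the replicate block 1 transcript passed in TNRC6AB-/- against wild type, 1 in TNRC6AB-/- siTNRC6C against wild type siGL2, 0 in wild type siGL2 against wild type and 0 in TNRC6AB-/- siGL2 against TNRC6AB-/-. Depth limits TUBB2B, with 13.0 to 141 reads a library.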
